A study of Rattus norvegicus with 8 samples.

Results

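The genes examined were those encoding subunits of potassium, sodium and calcium channels on an Affymetrix RAE 230A array, a rat expression array on which each probe set, a group of short probes for 1 or several transcripts, gives 1 fluorescence signal. They were chosen by symbol. A probe set was a member where the platform annotation gave it exactly 1 symbol starting with Kcn, with Scn followed by a number, or with Cacn, and the epithelial sodium channel genes were left out. This gave 155 probe sets for 109 genes, of 10411 genes with a probe set of 1 symbol. For each of the 29 genes with several probe sets, the one with the highest mean signal over the arrays was used. Of the 109 genes, 64 had a signal above 916, the 40th percentile of all signals, on at least 2 of the 8 arrays and were tested, and 45 did not. The genes comprised 30 voltage-gated potassium channel subunits (18 tested), 10 potassium channel auxiliary subunits (7 tested), 15 inward rectifiers (9 tested), 11 2-pore-domain potassium channels (5 tested) and 7 potassium channel genes activated by calcium or sodium (3 tested). There were 9 sodium channel pore subunits (5 tested), 3 sodium channel beta subunits (all 3 tested), 10 calcium channel pore subunits (6 tested), 6 calcium channel auxiliary subunits (4 tested) and 8 gamma subunits, a family that includes the regulators of AMPA receptors known as TARPs (4 tested).

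The arrays compared brain RNA of male Wistar rats aged 7 weeks after a transient stroke or a sham operation, with or without the angiotensin AT1 receptor blocker candesartan beforehand. The 4 groups were MCAO candesartan, MCAO vehicle, sham candesartan and sham vehicle, with 2 arrays each, and every array held RNA pooled from 2 rats. MCAO rats had the right middle cerebral artery occluded for 90 min before blood flow was restored, and sham rats were operated on without occlusion. Candesartan (0.1 mg/kg) or vehicle (0.9% NaCl) was injected under the skin 2 times a day for 5 days before surgery. The treatment protocol of array MCAO candesartan 2 states no pretreatment, so its place in the group rests on its source name and description. RNA came from a segment of the right hemisphere 2 h after surgery, so each signal averages over all cells of that segment. Fewer cells of a type and less RNA per cell cannot be told apart in such samples. P-values measure the spread between pools, and between single rats it was not measured.

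Neurons fire because sodium channels open quickly and let sodium in, and they recover because potassium channels let potassium out. Calcium channels turn the electrical signal into transmitter release and into calcium signals inside the cell. When blood flow stops, energy for the ion pumps runs out, potassium leaves cells, sodium and calcium enter, and waves of depolarization spread through the tissue. Astrocytes take up part of the released potassium through inward rectifiers. Pore subunits set which ion passes and at which voltage, while auxiliary subunits change how many channels reach the membrane and how they gate.

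In 9 genes the MCAO pools lay on one side of the sham pools with both pretreatments, and 7 of them have a promoter in the RefSeq table. Shown are the promoters of the 3 that hold a searched motif, Kcnip3 (above sham), Kcnab3 and Kcnj16 (both below), and of Kcnj10 (below), whose channel pairs with that of Kcnj16. Each sequence runs from 250 bases before to 50 bases after the start of the gene in the RefSeq annotation of assembly GRCr8. Capitals mark TGACG, the core of the cyclic AMP response element, or TGANTCA, which allows any middle base where the AP-1 element has C or G. Both motifs were searched on both strands, and both elements are bound by factors of the activity response. The sequences lie at chr3:135195361-135195660 on the minus strand, at chr10:54546388-54546687 on the plus strand, at chr10:96517074-96517373 on the plus strand and at chr13:87334260-87334559 on the plus strand.
Kcnip3: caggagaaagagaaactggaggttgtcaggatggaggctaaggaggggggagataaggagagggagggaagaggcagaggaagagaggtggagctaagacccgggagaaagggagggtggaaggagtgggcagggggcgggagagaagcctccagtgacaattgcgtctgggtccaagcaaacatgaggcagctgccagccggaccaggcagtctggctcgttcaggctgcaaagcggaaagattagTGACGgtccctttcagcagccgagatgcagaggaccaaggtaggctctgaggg
Kcnab3: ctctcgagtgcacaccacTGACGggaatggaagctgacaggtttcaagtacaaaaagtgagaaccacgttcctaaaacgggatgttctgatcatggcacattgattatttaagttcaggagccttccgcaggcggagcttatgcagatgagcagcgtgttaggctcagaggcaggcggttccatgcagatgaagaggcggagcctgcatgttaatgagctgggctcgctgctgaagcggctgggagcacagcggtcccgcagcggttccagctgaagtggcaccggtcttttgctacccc
Kcnj16: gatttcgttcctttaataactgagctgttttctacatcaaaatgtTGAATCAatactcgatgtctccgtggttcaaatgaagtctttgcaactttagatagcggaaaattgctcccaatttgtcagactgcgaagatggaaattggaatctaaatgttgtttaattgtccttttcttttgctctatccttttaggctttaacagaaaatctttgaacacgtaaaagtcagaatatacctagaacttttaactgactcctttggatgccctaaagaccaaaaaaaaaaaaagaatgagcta
Kcnj10: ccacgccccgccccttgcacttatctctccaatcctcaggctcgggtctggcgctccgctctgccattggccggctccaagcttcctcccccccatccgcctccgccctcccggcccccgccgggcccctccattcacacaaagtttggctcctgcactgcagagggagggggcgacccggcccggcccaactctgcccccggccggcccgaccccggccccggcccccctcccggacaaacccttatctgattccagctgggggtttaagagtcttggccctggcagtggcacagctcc
The Kcnip3 and Kcnab3 windows held 1 copy of TGACG each. The Kcnj16 window held 1 copy of TGANTCA, with A as its middle base, so it was not the stricter AP-1 element. The windows of Kcnj10 and of Kcnc1, Kcnh1 and Kcnk4 (all 3 above sham, not shown) held neither motif. A promoter was given for 76 of the 109 genes and for 46 of the 64 tested. TGACG occurred in 18.4% of the 76, in 21.7% of the 46 and in 21.2% of all 33469 promoters of this length. TGANTCA occurred in 5.26% of the 76, in 4.35% of the 46 and in 7.33% of all promoters. Median GC content was 61.7% over the 76 promoters of channel genes, against 51.7% over all. Channel genes had 1 promoter each, while the set of all promoters was not cut to 1 per gene or to genes of the array. A match is a stretch of letters and does not show that a factor binds there.

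Signals were deposited on a linear scale and compared as log2(signal + 370), which understates differences of dim genes. Array MCAO candesartan 2 stood apart from the others. It correlated with the rest at a mean of 0.951 over all tested probe sets and 0.911 over the tested channel genes, against at least 0.97 and 0.947 for the other arrays. Between the pools of a group, the tested channel genes differed by a median of 0.25 (log2) for MCAO candesartan, 0.16 for MCAO vehicle, 0.19 for sham candesartan and 0.13 for sham vehicle. The operation itself was visible in the immediate early genes, which neurons switch on within minutes of activity. Of 10 such genes, all 10 were higher after MCAO with either pretreatment, with a median difference of 1.35 with candesartan and 1.44 with vehicle. Limma called 10 of them with candesartan and 9 with vehicle at an adjusted p under 0.05. The list was chosen with earlier results of these data known. Atf3, Fosb and Ptgs2 passed the signal filter only through MCAO arrays, so their place above sham was in part fixed beforehand. Fos gave 6332 and 7695 in MCAO candesartan pools, 10899 and 7985 in MCAO vehicle pools, 755 and 852 in sham candesartan pools, and 955 and 965 in sham vehicle pools. Against the labelled tissue, 9 of 9 measured neuron markers, 11 of 11 astrocyte markers and 8 of 8 oligodendrocyte markers passed the signal filter. Limma called 0 markers of the 12 cell type lists in the 7 comparisons, with at most 5 of a list at an unadjusted p under 0.05. List medians ran from -0.56 (blood cells) to 0.53 (pyramidal neurons) after MCAO with candesartan and from -0.29 (oligodendrocyte precursors) to 0.11 (hypothalamus and thalamus) with vehicle.

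**Figure D1:**
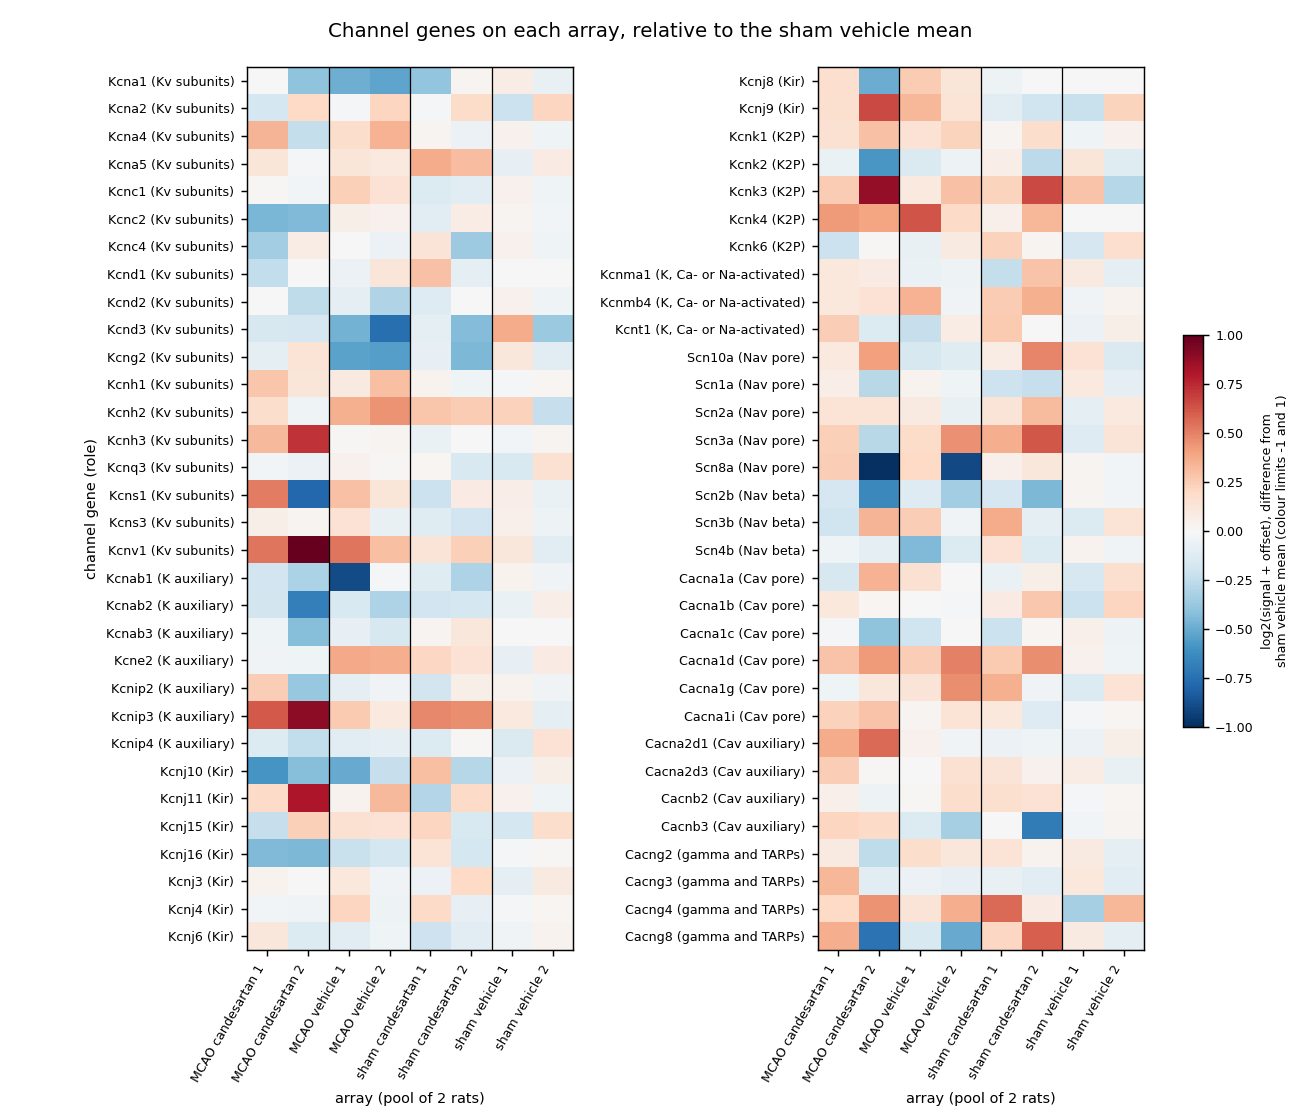
Each row is 1 of the 64 tested channel genes and each column 1 array, ordered MCAO candesartan, MCAO vehicle, sham candesartan and sham vehicle. Colour gives log2(signal + offset) minus the mean of the 2 sham vehicle arrays, limited to between -1 and 1, and the most intense cells lie mainly in the column of MCAO candesartan 2.

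No channel gene passed limma's test at an adjusted p under 0.05 in any of the 7 comparisons, which were the 4 between pairs of groups, the 2 averaged over the other factor and the interaction. After MCAO with candesartan 0 of 64 passed, with 10 at an unadjusted p under 0.05 (15.6%), while 0.242% of all 10310 probe sets passed the adjusted and 12.4% the unadjusted threshold. After MCAO with vehicle 0 of 64 passed, with 5 unadjusted (7.81%), against 0.262% and 7.04% of all probe sets. For candesartan against vehicle after MCAO 0 passed, with 7 unadjusted (10.9%), against 0.0679% and 13.1% of all probe sets. After the sham operation candesartan gave 0, with 4 unadjusted (6.25%), against 0% and 3.92% of all. Averaged over pretreatments, MCAO gave 0, with 10 unadjusted, against 0.417% and 9.52% of all probe sets. Averaged over operations, candesartan gave 0, with 5 unadjusted, against 0% and 7.09%. For the interaction, the MCAO difference with candesartan minus that with vehicle, the counts were 0 and 9, against 0.0194% and 8.87%. The lowest adjusted p of a channel gene in limma's test was 0.135, for Kcnv1 in MCAO averaged over pretreatments. With 2 pools against 2 an exact test of 1 gene cannot go below p = 0.333. That limit does not hold for the 2 comparisons averaged over the other factor, which use all 8 arrays.

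The counts depended on 1 array. Without MCAO candesartan 1, which leaves MCAO candesartan 2 alone in its group and takes it to vary like the other groups, limma called 7 channel genes in MCAO minus sham with candesartan, against 8.1% of all probe sets. They were Cacna2d1, Cacng8, Kcnab2, Kcnh3, Kcnj11, Kcnj9 and Kcnv1. In the same fit 6 were called for candesartan against vehicle after MCAO (Cacna2d1, Kcnc2, Kcnh3, Kcnip3, Kcns1 and Kcnv1), against 9.56% of all probe sets, 4 for MCAO averaged over pretreatments (against 3.77% of all), 1 for candesartan averaged over operations (against 2.94%) and 1 for the interaction (against 2.87%). As shares of the 64 tested channel genes, 7 are 10.9%, 6 are 9.38%, 4 are 6.25% and 1 is 1.56%, against the shares of all probe sets just given. Without MCAO candesartan 2 the count was 0 in all 7 comparisons. Sizes also rested on single arrays. Of the 38 differences that the naming rule selected, 20 moved by over 1.5 times when 1 array was left out, and those of at least 0.3 (log2) in either direction are given below with and without that array.

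The channel genes as a whole were centred near 0. Their median difference was -0.05 after MCAO with candesartan and 0.03 after MCAO with vehicle, where all tested probe sets had -0.03 and 0.01. For candesartan against vehicle it was -0.02 after MCAO and 0.01 after sham, where all probe sets had -0.03 and 0.01. Differences over 0.5 (log2) in either direction were found for 9 of 64 channel genes after MCAO with candesartan (14.1%, against 5.73% of all probe sets). Without MCAO candesartan 2 they were found for 3 genes, Cacnb3, Kcnj10 and Kcns1 (4.69%, against 5.78% of all probe sets), and without MCAO candesartan 1 for 11 (17.2%, against 15.2%). They were found for 3 after MCAO with vehicle (4.69%, against 2.99%), and for between 2 and 6 when 1 array of those groups was left out. They were found for 4 genes with candesartan after MCAO (6.25%, against 5.98%), for 13 without MCAO candesartan 1 (20.3%, against 15.9%), and for 0 after sham (up to 4 without 1 sham array), against 1.71% of all probe sets.

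Separation of pools was also counted without a test. After MCAO with candesartan both pools lay above both sham candesartan pools for 12 channel genes (18.8%, against 16.9% of all probe sets) and below for 11 (17.2%, against 21.4%). After MCAO with vehicle the counts were 17 above (26.6%, against 24.6%) and 13 below (20.3%, against 20.6%). Candesartan after MCAO gave 13 above (20.3%, against 18%) and 9 below (14.1%, against 23.8%), and after sham 14 above (21.9%, against 18.9%) and 7 below (10.9%, against 14.9%). Most of these shares were near those of all probe sets. In both MCAO comparisons, which share no array, 6 channel genes lay above (9.38%, against 4.86% of all probe sets), namely Cacna1i, Kcnc1, Kcnh1, Kcnip3, Kcnk4 and Kcnv1. Kcnab3, Kcnj10 and Kcnj16 lay below in both (4.69%, against 4.35%).

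**Figure D2:**
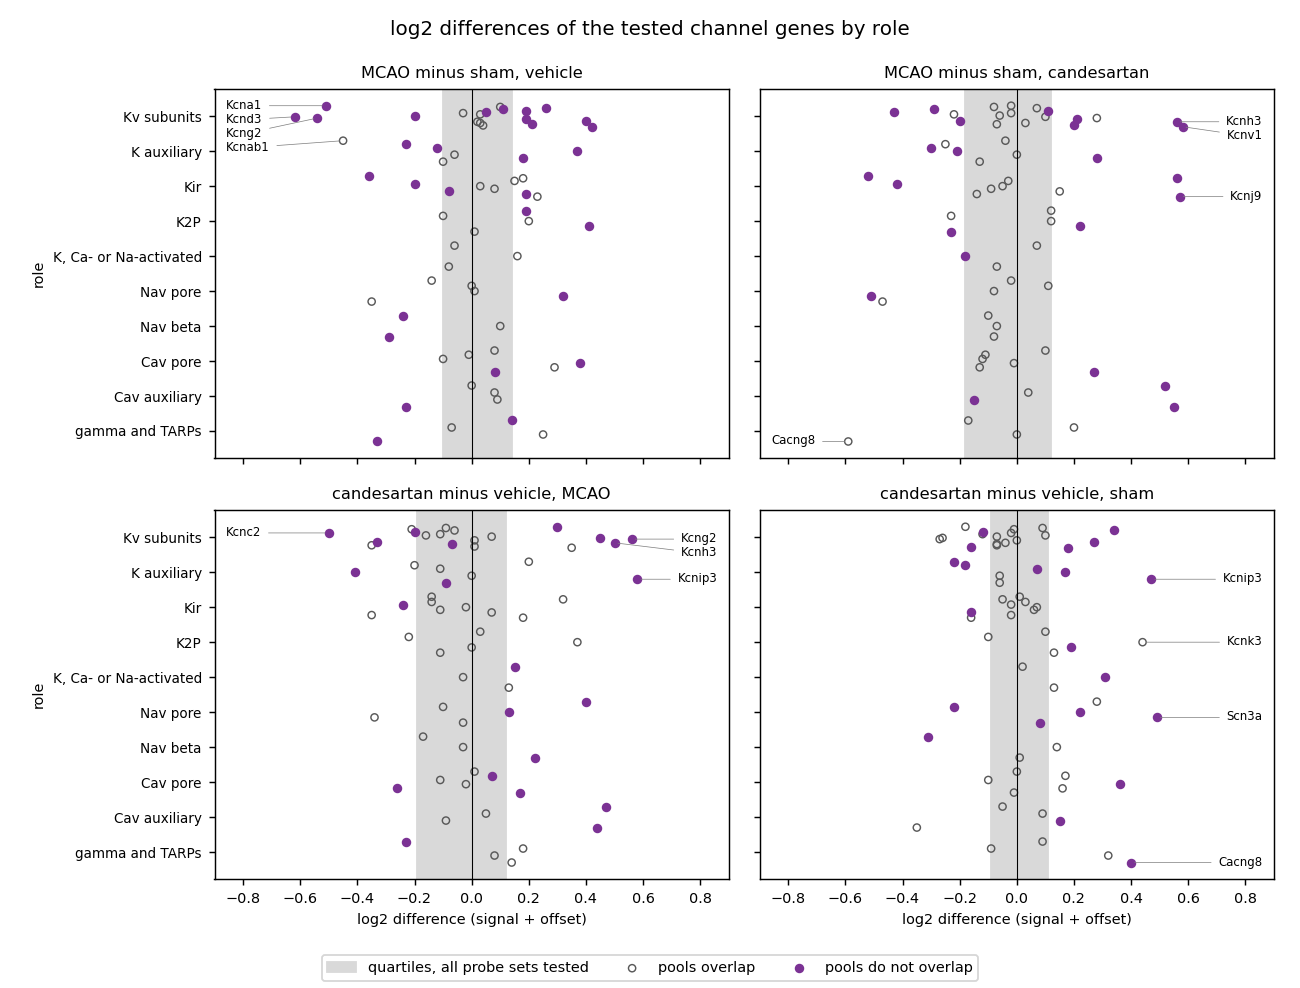
Each point is 1 tested channel gene, placed by its log2 difference (x axis) and its role (y axis), in 1 panel per comparison. Filled points are genes whose pools did not overlap, the grey band holds the middle quartiles of all tested probe sets, and the 4 genes with the largest absolute differences are named in each panel, among them Kcnv1 and Kcnj9 at 0.58 and 0.57 for MCAO with candesartan.

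Among the voltage-gated potassium channel subunits, 9 of 18 tested genes were above 0 after MCAO with candesartan and 13 of 18 with vehicle, with medians of 0.00 and 0.04. Kcnv1 encodes an electrically silent subunit that gives no current alone and alters its partners. Its signals were 5221 and 7349.8 in MCAO candesartan pools, 5225 and 4382 in MCAO vehicle pools, 3857 and 4187 in sham candesartan pools, and 3799.7 and 3207 in sham vehicle pools. Every MCAO pool of Kcnv1 lay above every sham pool. The differences were 0.58 ± 0.17 (adjusted p = 0.239) with candesartan, 0.42 ± 0.17 (adjusted p = 0.63) with vehicle and 0.50 ± 0.12 averaged over pretreatments, in log2 ± SE. Without MCAO candesartan 2 the first was 0.35. Kcng2, another silent subunit, gave 1109.8 and 1365 in MCAO candesartan pools, 719.9 and 712 in MCAO vehicle pools, 1122 and 791 in sham candesartan pools, and 1343 and 1090.3 in sham vehicle pools. For Kcng2 the MCAO vehicle pools lay below all other pools, -0.54 ± 0.19 against sham vehicle and 0.56 ± 0.19 for candesartan against vehicle after MCAO. The interaction of Kcng2 was 0.83 ± 0.27 (adjusted p = 0.495).

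Kcnh3, of the ether-a-go-go-like family of forebrain neurons, gave 4276 and 5756 in MCAO candesartan pools, 3386 and 3413 in MCAO vehicle pools, 3179 and 3327 in sham candesartan pools, and 3284 and 3409 in sham vehicle pools. For Kcnh3 both MCAO candesartan pools lay above the other 6 arrays, which spanned a narrow range. The differences were 0.56 ± 0.14 (adjusted p = 0.205) from sham candesartan and 0.50 ± 0.14 (adjusted p = 0.251) from MCAO vehicle, and 0.36 and 0.30 without MCAO candesartan 2. Kcnh2, the erg channel that repolarizes heart and some neurons, gave 1229 and 1008 in MCAO candesartan pools, 1441 and 1565 in MCAO vehicle pools, 1352 and 1318 in sham candesartan pools, and 1294 and 839.8 in sham vehicle pools. The Kcnh2 pools of MCAO lay below sham with candesartan (-0.20 ± 0.19) and above it with vehicle (0.40 ± 0.19), where the difference was 0.17 without sham vehicle 2 and 0.63 without sham vehicle 1. Kcnh1, the eag channel, gave 3261 and 2889 in MCAO candesartan pools, 2810.4 and 3311 in MCAO vehicle pools, 2701 and 2529 in sham candesartan pools, and 2574 and 2671 in sham vehicle pools. Its MCAO pools lay above the sham pools with both pretreatments, by 0.21 ± 0.13 and 0.19 ± 0.13.

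The channels of fast-spiking neurons are encoded by Kcnc1 and Kcnc2. Kcnc2 gave 7923 and 8005 in MCAO candesartan pools, 11474 and 11359 in MCAO vehicle pools, 10194 and 11601 in sham candesartan pools, and 11278 and 10787 in sham vehicle pools. For Kcnc2 the MCAO candesartan pools were close together and lay below the other 6 arrays. They differed by -0.43 ± 0.11 (adjusted p = 0.207) from sham candesartan and by -0.50 ± 0.11 (adjusted p = 0.195) from MCAO vehicle, and by -0.44 and -0.51 without MCAO candesartan 2. The other 4 tested probe sets of Kcnc2 differed by -0.21, 0.12, -0.05 and -0.37 for MCAO with candesartan. For candesartan against vehicle after MCAO they differed by -0.12, 0.01, 0 and -0.18, all with overlapping pools. The probe sets thus did not all share a sign. Kcnc1 gave 4763 and 4615 in MCAO candesartan pools, 5634 and 5248 in MCAO vehicle pools, 4265 and 4345 in sham candesartan pools, and 4881 and 4567 in sham vehicle pools. Both MCAO comparisons of Kcnc1 had separate pools, at 0.11 ± 0.11 with candesartan and 0.19 ± 0.11 with vehicle. Candesartan pools of Kcnc1 lay below vehicle pools after MCAO (-0.20 ± 0.11) and after sham (-0.12 ± 0.11).

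Of the axonal Kcna family, Kcna1 gave 3213 and 2349 in MCAO candesartan pools, 2199.6 and 2127 in MCAO vehicle pools, 2370.0 and 3299 in sham candesartan pools, and 3426 and 3046 in sham vehicle pools. Kcna1 in MCAO vehicle lay below all other pools, at -0.51 ± 0.17 (adjusted p = 0.525) from sham vehicle, and the pools of MCAO candesartan and sham candesartan overlapped. Kcna2, its usual partner, gave 730.3 and 1049.8 in MCAO candesartan pools, 855 and 1071 in MCAO vehicle pools, 863 and 1039 in sham candesartan pools, and 699 and 1068 in sham vehicle pools. Kcna4, an inactivating member of the family, gave 1265 and 724 in MCAO candesartan pools, 1089.8 and 1272 in MCAO vehicle pools, 945 and 871 in sham candesartan pools, and 956 and 883 in sham vehicle pools. Kcna2 pools overlapped in all 4 comparisons, and Kcna4 pools were separate only for MCAO against sham with vehicle (0.26 ± 0.21). Kcna5 gave 859.8 and 753 in MCAO candesartan pools, 866 and 841 in MCAO vehicle pools, 1095 and 1032 in sham candesartan pools, and 703 and 827 in sham vehicle pools. MCAO pools of Kcna5 lay below sham with candesartan (-0.29 ± 0.18) and above it with vehicle (0.11 ± 0.18). Only its sham candesartan pools exceeded the filter of 916, so Kcna5 was tested through the group where it was highest.

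The A-type currents of dendrites run through channels encoded by Kcnd2 and Kcnd3. Kcnd3 gave 2042 and 2033 in MCAO candesartan pools, 1568 and 1226 in MCAO vehicle pools, 2162 and 1622 in sham candesartan pools, and 3115 and 1716 in sham vehicle pools. MCAO vehicle lay below sham vehicle for Kcnd3 by -0.62 ± 0.23 (adjusted p = 0.562), with the sham vehicle pools far apart. That difference was -0.99 without sham vehicle 2 and -0.25 without sham vehicle 1. Kcnd2 gave 4904 and 4062 in MCAO candesartan pools, 4579 and 3911 in MCAO vehicle pools, 4459.6 and 4892 in sham candesartan pools, and 5054 and 4760.5 in sham vehicle pools. The Kcnd2 pools were separate only for MCAO against sham with vehicle, at -0.20 ± 0.13. The remaining tested genes of this role, Kcnc4, Kcnd1, Kcnq3, Kcns1 and Kcns3, differed by between -0.35 and 0.21 in the 4 comparisons.

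**Figure D3:**
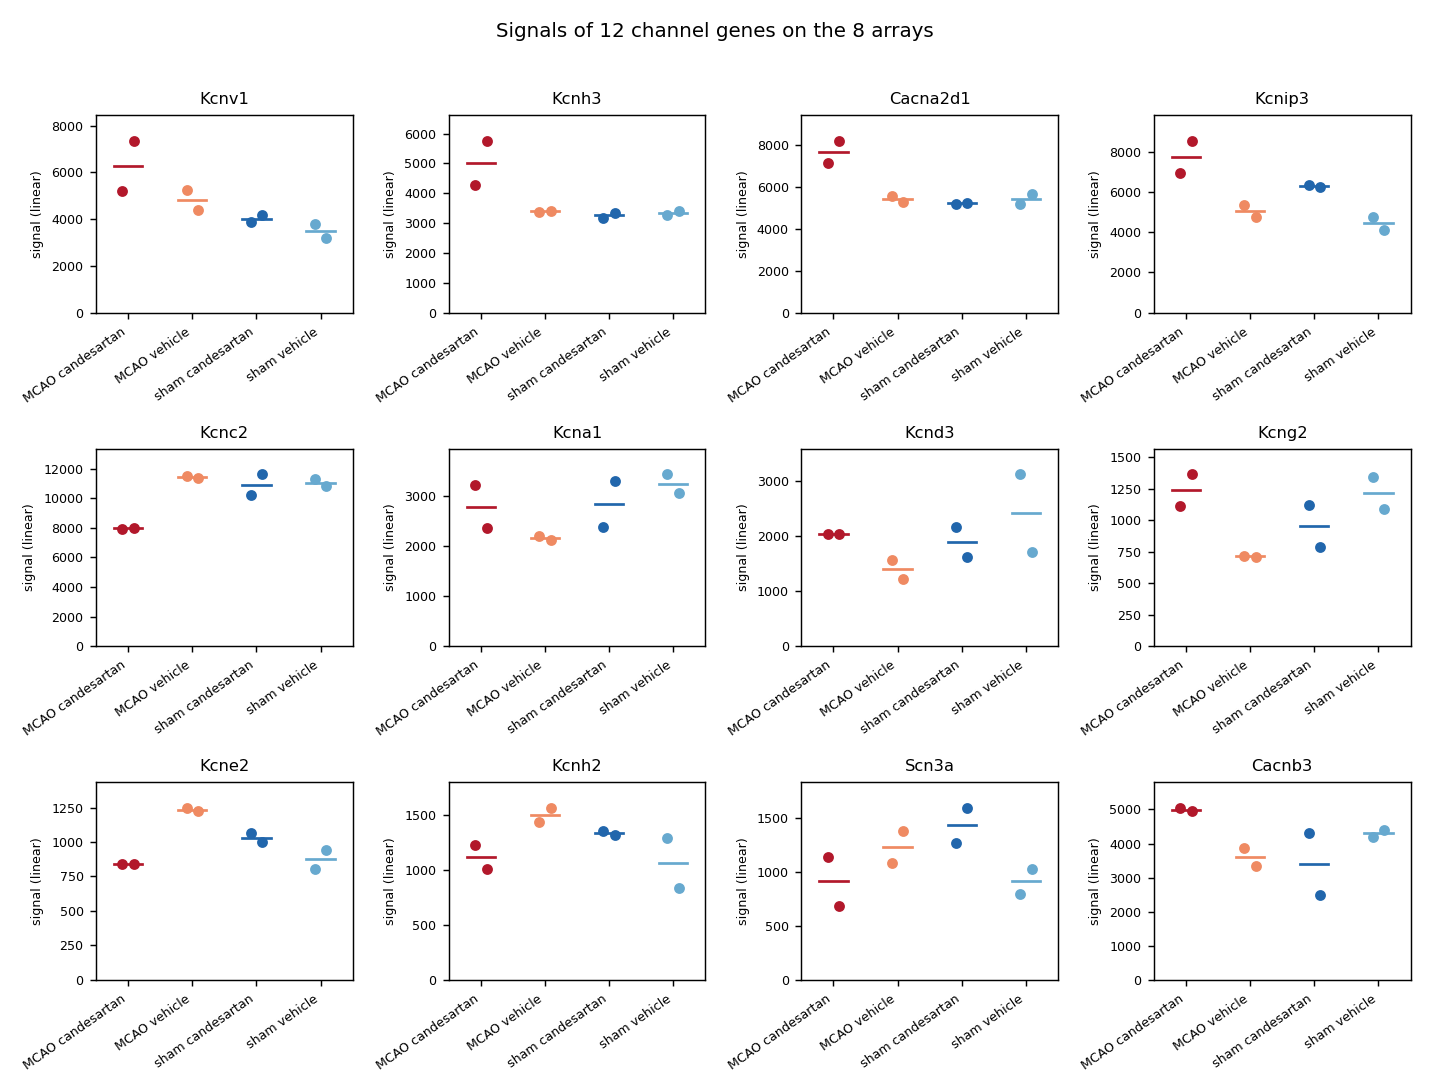
Points are the signals of single pools on a linear axis starting at 0 and bars the mean of the 2 pools, for 12 channel genes in the groups MCAO candesartan, MCAO vehicle, sham candesartan and sham vehicle. The MCAO pools of Kcnv1 lie above its sham pools, and the MCAO candesartan pools of Kcnh3 and Cacna2d1 lie above and those of Kcnc2 below the other 6 arrays.

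Among the potassium channel auxiliary subunits, 1 of 7 tested genes was above 0 after MCAO with candesartan and 2 of 7 with vehicle. Kcnip3 encodes a calcium-binding partner of the A-type channels that also acts as a transcriptional repressor. It gave 6989.6 and 8572 in MCAO candesartan pools, 5381 and 4777 in MCAO vehicle pools, 6343 and 6262 in sham candesartan pools, and 4771 and 4125 in sham vehicle pools. For Kcnip3 the candesartan pools lay above the vehicle pools after both operations, and the MCAO pools above the sham pools with both pretreatments. Candesartan against vehicle gave 0.58 ± 0.13 (adjusted p = 0.222) after MCAO, 0.47 ± 0.13 (adjusted p = 1) after sham and 0.52 ± 0.10 (adjusted p = 0.356) averaged over operations, in limma's test. Without MCAO candesartan 2 the first was 0.44. A second probe set of Kcnip3 gave 0.54 after MCAO, with separate pools, and 0.20 after sham, with overlapping pools. For MCAO against sham that probe set gave 0.51 with candesartan, with separate pools, and 0.17 with vehicle, with overlapping pools. Kcne2, a small subunit abundant in choroid plexus epithelium, gave 842 and 838 in MCAO candesartan pools, 1247 and 1223 in MCAO vehicle pools, 1062 and 1001 in sham candesartan pools, and 805 and 942 in sham vehicle pools. Its MCAO pools lay below sham with candesartan (-0.21 ± 0.17) and above it with vehicle (0.37 ± 0.17), and its candesartan pools below vehicle after MCAO (-0.41 ± 0.17) and above it after sham (0.17 ± 0.17).

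The beta subunits of the Kcna channels bind their inner face. Kcnab1 gave 3810.2 and 3449.7 in MCAO candesartan pools, 2199 and 4357 in MCAO vehicle pools, 4018 and 3470.3 in sham candesartan pools, and 4521 and 4273 in sham vehicle pools. Kcnab2 gave 8309.8 and 5752 in MCAO candesartan pools, 8493 and 7568 in MCAO vehicle pools, 8252 and 8330.3 in sham candesartan pools, and 9046 and 9925 in sham vehicle pools. Candesartan pools lay below vehicle pools after sham for Kcnab1 (-0.22 ± 0.23) and Kcnab2 (-0.18 ± 0.16), and the MCAO vehicle pools of Kcnab1 were far apart. Both differences were -0.12 without 1 array, sham candesartan 2 for Kcnab1 and sham vehicle 2 for Kcnab2. Kcnab3 gave 1219.7 and 846 in MCAO candesartan pools, 1172 and 1097 in MCAO vehicle pools, 1293 and 1398 in sham candesartan pools, and 1263 and 1267 in sham vehicle pools. MCAO pools of Kcnab3 lay below sham with candesartan (-0.30 ± 0.17, and -0.11 without MCAO candesartan 2) and with vehicle (-0.12 ± 0.17).

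Among the inward rectifiers, 3 of 9 tested genes were above 0 after MCAO with candesartan and 6 of 9 with vehicle. Kcnj10 and Kcnj16 encode the channel pair through which astrocytes take up potassium. Kcnj10 gave 653 and 776 in MCAO candesartan pools, 717 and 945 in MCAO vehicle pools, 1530.2 and 892 in sham candesartan pools, and 1104 and 1237 in sham vehicle pools. Kcnj16 gave 1223 and 1219 in MCAO candesartan pools, 1483 and 1544 in MCAO vehicle pools, 2007 and 1549.7 in sham candesartan pools, and 1776 and 1819 in sham vehicle pools. Both genes had every MCAO pool below the sham pools of the same pretreatment. Kcnj10 differed by -0.52 ± 0.22 (adjusted p = 0.382) with candesartan, -0.36 ± 0.22 (adjusted p = 0.805) with vehicle and -0.44 ± 0.16 averaged over pretreatments. Kcnj16 differed by -0.42 ± 0.15 (adjusted p = 0.322) with candesartan, -0.20 ± 0.15 (adjusted p = 0.856) with vehicle and -0.31 ± 0.11 averaged. Without MCAO candesartan 2 the differences with candesartan were -0.60 and -0.42, and without sham candesartan 1, the highest pool of both genes, -0.22 and -0.27. The Kcnj10 difference with vehicle was -0.23 without MCAO vehicle 1. A second probe set of Kcnj16 lay below sham in both, by -0.49 with candesartan and -0.56 with vehicle.

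Astrocyte markers were measured beside these 2 genes. Of 11 markers, 7 were below 0 after MCAO with candesartan and 11 with vehicle, with medians of -0.14 and -0.18, and limma called 0 of them, with 3 and 1 at an unadjusted p under 0.05. Their summed signals were 196006 and 269382 in MCAO candesartan pools, 199274 and 210799 in MCAO vehicle pools, 239477 and 226200.0 in sham candesartan pools, and 235281 and 239860.4 in sham vehicle pools. The MCAO vehicle sums lay below both sham vehicle sums, and MCAO candesartan 2 had the highest sum of all. On that array Aldoc reached 67315, against at most 44492 on the others, and Gfap, Slc1a3, S100b, Glul and Ntsr2 were also highest. Aqp4 and Fgfr3 were instead lowest there, and Gja1, Slc1a2 and Aldh1l1 were neither. The part of astrocyte content in the Kcnj10 and Kcnj16 differences was not tested.

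Other inward rectifiers were spread around 0. Kcnj9, a subunit of the channels opened by G proteins, gave 1802 and 2705 in MCAO candesartan pools, 2079 and 1767 in MCAO vehicle pools, 1426 and 1329 in sham candesartan pools, and 1296 and 1903 in sham vehicle pools. Kcnj11, the pore of the channel closed by ATP in neurons, gave 1829 and 2999 in MCAO candesartan pools, 1597 and 2033 in MCAO vehicle pools, 1196 and 1821 in sham candesartan pools, and 1613 and 1492 in sham vehicle pools. MCAO candesartan lay above sham candesartan for Kcnj9 (0.57 ± 0.20 (adjusted p = 0.322)) and, by a small margin, for Kcnj11 (0.56 ± 0.22 (adjusted p = 0.359)), and the differences were 0.31 and 0.25 without MCAO candesartan 2. The other 2 tested probe sets of Kcnj11 gave 0.09 and -0.05. Kcnj8, the counterpart of Kcnj11 in vessel muscle, gave 955 and 466 in MCAO candesartan pools, 1036 and 914 in MCAO vehicle pools, 767 and 816 in sham candesartan pools, and 804 and 816 in sham vehicle pools. Kcnj4 gave 2198 and 2188 in MCAO candesartan pools, 2667 and 2159.6 in MCAO vehicle pools, 2629.5 and 2107 in sham candesartan pools, and 2222 and 2286 in sham vehicle pools. Pools of Kcnj4 overlapped in all 4 comparisons, and those of Kcnj8 were separate only for MCAO against sham with vehicle (0.19 ± 0.23). Kcnj8 passed the signal filter only through MCAO arrays, so it was tested through the arrays where it was highest.

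**Figure D4:**
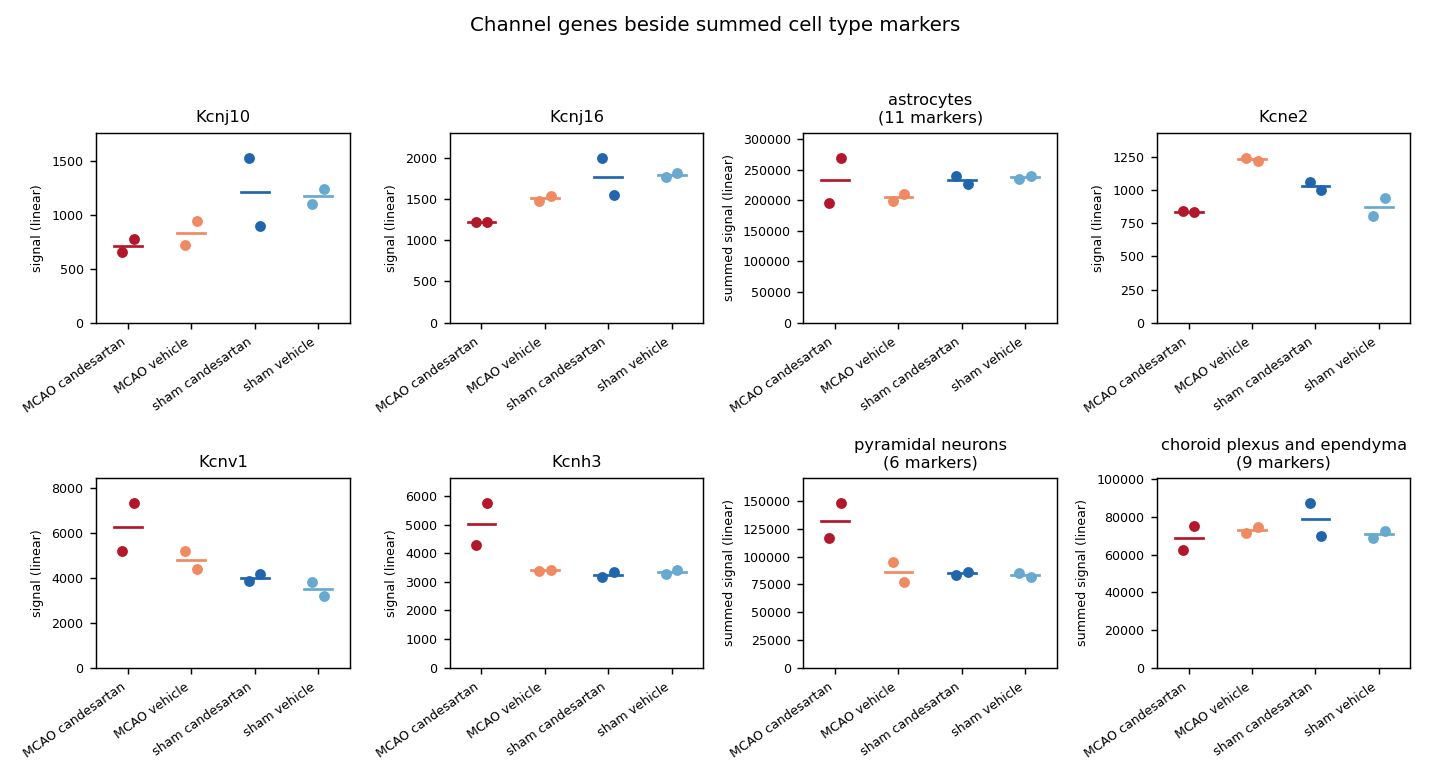
Points are single pools and bars the mean of the 2 pools, on linear axes starting at 0, for 5 channel genes and the summed signals of 3 marker lists. Kcnj10 and Kcnj16 stand beside the astrocyte sum, Kcnv1 and Kcnh3 near the pyramidal neuron sum, which is highest in MCAO candesartan, and Kcne2 above the choroid plexus and ependyma sum.

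Several channel genes high in MCAO candesartan stood beside markers of pyramidal neurons. Of 6 measured pyramidal markers 4 were above 0 after MCAO with candesartan, with a median of 0.53, and 3 with vehicle, with a median of 0.01. Limma called 0 of them, with 5 and 0 at an unadjusted p under 0.05. The summed signals were 116524 and 148232 in MCAO candesartan pools, 95412 and 76963 in MCAO vehicle pools, 83444 and 86081 in sham candesartan pools, and 84762 and 81349 in sham vehicle pools. Both MCAO candesartan sums lay above those of the other 6 arrays, as for Kcnh3. The members did not move together, with Camk2a at 1.67 and Nrgn at 0.81 but Neurod2 at -0.36 and Slc17a6 at -0.52 after MCAO with candesartan. Of 9 tested markers of hypothalamus and thalamus, 7 were below 0 after MCAO with candesartan (median -0.39) and 4 with vehicle (median 0.11). The sums of the 9 general neuron markers were 228425 and 255449 in MCAO candesartan pools, 205069.9 and 195549 in MCAO vehicle pools, 195994 and 207208 in sham candesartan pools, and 220859 and 193722 in sham vehicle pools, and they too were highest in the MCAO candesartan pools. That order of the neuron sums rested on Snap25, at 86194 and 113989 in those pools and at most 73519 on the other arrays. Of the 9 neuron markers 6 were above 0 after MCAO with candesartan and 3 below, with a median of 0.10. Kcnv1, which was above sham in both MCAO comparisons, was highest in MCAO candesartan 2. That array had the highest sums of the pyramidal, general neuron, interneuron, astrocyte and oligodendrocyte lists alike. The oligodendrocyte sum was high there through Mbp, at 231194 against at most 122217 on the other arrays. Mog, Mag, Cnp, Cldn11, Ugt8 and Mal were instead lowest on that array, and Mobp was neither highest nor lowest. The part of cell content in the Kcnv1, Kcnh3 and Cacna2d1 differences was not tested. For Kcne2 the choroid plexus and ependyma markers, 9 measured and 6 tested, had 0 of 6 above 0 after MCAO with candesartan (median -0.36) and 3 of 6 with vehicle (median 0.04). Their sums were 62627 and 75484 in MCAO candesartan pools, 71672 and 74706 in MCAO vehicle pools, 87549 and 70208 in sham candesartan pools, and 68958 and 72673 in sham vehicle pools, and their part in the Kcne2 difference was not tested.

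Among the 2-pore-domain channels, which carry the resting potassium leak, 3 of 5 tested genes were above 0 after MCAO with candesartan and 4 of 5 with vehicle, with medians of 0.12 and 0.19. Kcnk4, a mechanically gated leak channel of neurons, gave 1200.3 and 1167 in MCAO candesartan pools, 1442 and 967 in MCAO vehicle pools, 841 and 1099 in sham candesartan pools, and 798 and 799.8 in sham vehicle pools. Its MCAO pools lay above sham with candesartan (0.22 ± 0.20) and with vehicle (0.41 ± 0.20 (adjusted p = 0.723)), where the MCAO vehicle pools were far apart and the difference was 0.19 without MCAO vehicle 1 and 0.63 without MCAO vehicle 2. Kcnk1 gave 2947 and 3290.2 in MCAO candesartan pools, 2939 and 3130.4 in MCAO vehicle pools, 2681 and 3006 in sham candesartan pools, and 2539.5 and 2708 in sham vehicle pools. Kcnk2, a leak channel opened by stretch and lipids, gave 2745 and 1813 in MCAO candesartan pools, 2576 and 2778 in MCAO vehicle pools, 3049.9 and 2357 in sham candesartan pools, and 3176 and 2633 in sham vehicle pools. Kcnk1 pools were separate for MCAO against sham with vehicle (0.19 ± 0.13), and Kcnk2 pools overlapped in all 4 comparisons. Kcnk3, the acid-sensitive leak channel, gave 673 and 1238 in MCAO candesartan pools, 567 and 704 in MCAO vehicle pools, 655 and 1017 in sham candesartan pools, and 699 and 348 in sham vehicle pools. Its pools overlapped throughout, and for candesartan after MCAO its second tested probe set gave -0.56 where the first gave 0.37 ± 0.29, and 0.06 without MCAO candesartan 2.

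The calcium- or sodium-activated potassium channels had 1 of 3 tested genes above 0 after MCAO with either pretreatment. Kcnma1, the large-conductance channel opened by calcium and voltage, gave 2302 and 2260.0 in MCAO candesartan pools, 2002 and 2031 in MCAO vehicle pools, 1742 and 2656 in sham candesartan pools, and 2284 and 1962 in sham vehicle pools. Kcnt1, opened by sodium, gave 2534 and 1858 in MCAO candesartan pools, 1714 and 2205 in MCAO vehicle pools, 2561 and 2069 in sham candesartan pools, and 1984 and 2176 in sham vehicle pools. Kcnma1 pools were separate only for candesartan against vehicle after MCAO (0.15 ± 0.17), and Kcnt1 pools overlapped in all 4 comparisons. Kcnmb4, the neuronal beta subunit of the Kcnma1 channel, gave 5849 and 6008 in MCAO candesartan pools, 6989 and 5266 in MCAO vehicle pools, 6530.2 and 7019.6 in sham candesartan pools, and 5266 and 5551 in sham vehicle pools. After sham its candesartan pools lay above vehicle by 0.31 ± 0.14 (adjusted p = 1).

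Among the sodium channel pore subunits, 1 of 5 tested genes was above 0 after MCAO with candesartan and 2 of 5 with vehicle. Scn3a, the pore subunit most abundant before birth, gave 1139 and 679.8 in MCAO candesartan pools, 1079 and 1377 in MCAO vehicle pools, 1269 and 1588 in sham candesartan pools, and 796 and 1025 in sham vehicle pools. For Scn3a the MCAO pools lay below sham with candesartan (-0.51 ± 0.22 (adjusted p = 0.378)) and above it with vehicle (0.32 ± 0.22 (adjusted p = 0.842)), and sham candesartan lay above sham vehicle (0.49 ± 0.22). The interaction was -0.83 ± 0.31 (adjusted p = 0.54), and the first difference was -0.25 without MCAO candesartan 2 and the second 0.18 without MCAO vehicle 2. Scn1a, the main sodium channel of inhibitory neurons, gave 7706 and 5992 in MCAO candesartan pools, 7526 and 7105 in MCAO vehicle pools, 6294 and 6213 in sham candesartan pools, and 7861 and 6845 in sham vehicle pools. Scn2a, found in excitatory neurons and unmyelinated axons, gave 5453 and 5455 in MCAO candesartan pools, 5266 and 4642 in MCAO vehicle pools, 5400.4 and 6216 in sham candesartan pools, and 4571 and 5294 in sham vehicle pools. Neither gene separated MCAO from sham. Scn2a lay above vehicle with candesartan after MCAO (0.13 ± 0.13) and after sham (0.22 ± 0.13), and Scn1a lay below vehicle after sham (-0.22 ± 0.14, and -0.12 without sham vehicle 1). Scn8a, the channel of mature nodes and spike initiation, gave 1013 and 208 in MCAO candesartan pools, 969.8 and 254 in MCAO vehicle pools, 840.3 and 892 in sham candesartan pools, and 823 and 774 in sham vehicle pools. The Scn8a pools of both MCAO groups were far apart, 1 near the sham values and 1 far below.

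The sodium channel beta subunits had 0 of 3 tested genes above 0 after MCAO with candesartan and 1 of 3 with vehicle. Scn2b, a membrane partner that raises sodium channel density, gave 1084 and 670.3 in MCAO candesartan pools, 1121 and 913 in MCAO vehicle pools, 1081 and 822 in sham candesartan pools, and 1293 and 1229 in sham vehicle pools. For Scn2b the sham vehicle pools were the highest, and both sham candesartan (-0.31 ± 0.21) and MCAO vehicle (-0.24 ± 0.21) lay below them. The first was -0.17 without sham candesartan 2. Scn4b gave 12511 and 12085 in MCAO candesartan pools, 9441 and 11726 in MCAO vehicle pools, 14334 and 11743 in sham candesartan pools, and 13231 and 12632 in sham vehicle pools. Scn4b in MCAO vehicle lay below sham vehicle by -0.29 ± 0.14 and below MCAO candesartan, and its pools overlapped in the other 2 comparisons.

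Among the calcium channel pore subunits, 2 of 6 tested genes were above 0 after MCAO with candesartan and 4 of 6 with vehicle. Cacna1d, an L-type channel, gave 1418 and 1605 in MCAO candesartan pools, 1379 and 1711 in MCAO vehicle pools, 1393 and 1657 in sham candesartan pools, and 1149 and 1054 in sham vehicle pools. The sham vehicle pools of Cacna1d were the lowest 2 of the 8 arrays, at 0.38 ± 0.16 (adjusted p = 0.675) for MCAO against sham with vehicle and 0.36 ± 0.16 (adjusted p = 1) for candesartan against vehicle after sham. Without MCAO vehicle 2 the first was 0.25. Cacna1c, the other neuronal L-type channel, gave 1709 and 1224 in MCAO candesartan pools, 1467 and 1733 in MCAO vehicle pools, 1447 and 1772 in sham candesartan pools, and 1820.1 and 1660.2 in sham vehicle pools. Cacna1a and Cacna1b encode the main channels of transmitter release. Cacna1a gave 994 and 1569 in MCAO candesartan pools, 1328 and 1161 in MCAO vehicle pools, 1086 and 1221 in sham candesartan pools, and 999 and 1333 in sham vehicle pools. Cacna1b gave 3639.7 and 3418 in MCAO candesartan pools, 3364 and 3313 in MCAO vehicle pools, 3569.8 and 4129.7 in sham candesartan pools, and 2838 and 3967 in sham vehicle pools. None of these 3 separated MCAO from sham with either pretreatment, and Cacna1b lay above vehicle with candesartan after MCAO (0.07 ± 0.15). A second probe set of Cacna1a differed by -0.82 for MCAO with candesartan, where the first gave 0.10 ± 0.20. Cacna1g and Cacna1i encode low-threshold channels of bursting neurons. Cacna1g gave 1253 and 1439 in MCAO candesartan pools, 1457 and 1939 in MCAO vehicle pools, 1777 and 1265 in sham candesartan pools, and 1152 and 1473 in sham vehicle pools. Cacna1i gave 1225 and 1281 in MCAO candesartan pools, 1014 and 1123 in MCAO vehicle pools, 1089 and 873 in sham candesartan pools, and 969 and 1008 in sham vehicle pools. MCAO lay above sham for Cacna1i with candesartan (0.27 ± 0.17) and vehicle (0.08 ± 0.17), and Cacna1g lay below vehicle with candesartan after MCAO (-0.26 ± 0.19). That Cacna1g difference was -0.09 without MCAO vehicle 2 and -0.43 without MCAO vehicle 1.

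The calcium channel auxiliary subunits had 3 of 4 tested genes above 0 after MCAO with either pretreatment, with medians of 0.28 with candesartan and 0.04 with vehicle. Cacna2d1, the subunit that carries pore subunits to the membrane and binds gabapentin, gave 7107 and 8186 in MCAO candesartan pools, 5561 and 5267 in MCAO vehicle pools, 5179.5 and 5241 in sham candesartan pools, and 5174 and 5635 in sham vehicle pools. For Cacna2d1 both MCAO candesartan pools lay above the other 6 arrays. It differed by 0.52 ± 0.12 (adjusted p = 0.174) from sham candesartan and by 0.47 ± 0.12 (adjusted p = 0.239) from MCAO vehicle, 0.37 without MCAO candesartan 2, and by 0.00 ± 0.12 between MCAO vehicle and sham vehicle. Its interaction was 0.52 ± 0.17 (adjusted p = 0.495). Cacnb3, a cytoplasmic subunit of neuronal channels, gave 5044 and 4954 in MCAO candesartan pools, 3875 and 3338 in MCAO vehicle pools, 4299 and 2496 in sham candesartan pools, and 4206 and 4385 in sham vehicle pools. MCAO pools of Cacnb3 lay above sham with candesartan (0.55 ± 0.19 (adjusted p = 0.322)) and below it with vehicle (-0.23 ± 0.19), with the sham candesartan pools far apart. The difference with candesartan was 0.20 without sham candesartan 2 and 0.91 without sham candesartan 1.

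Of the gamma subunits and TARPs, 2 of 4 tested genes were above 0 after MCAO with either pretreatment. Cacng8, a TARP of hippocampus and cortex, gave 2010.1 and 739.8 in MCAO candesartan pools, 1294 and 933 in MCAO vehicle pools, 1769 and 2434 in sham candesartan pools, and 1600.2 and 1366 in sham vehicle pools. Its MCAO candesartan pools were far apart, so the difference of -0.59 ± 0.30 (adjusted p = 0.456) came with overlapping pools and was -0.04 without MCAO candesartan 2. With vehicle the MCAO pools of Cacng8 lay below sham (-0.33 ± 0.30), by -0.15 without MCAO vehicle 2. After sham, candesartan pools lay above vehicle pools by 0.40 ± 0.30, and by 0.21 without sham candesartan 2. Cacng2, the TARP stargazin, gave 2914 and 2224 in MCAO candesartan pools, 3128 and 2970.4 in MCAO vehicle pools, 3026 and 2800.4 in sham candesartan pools, and 2923 and 2534 in sham vehicle pools. Cacng3 gave 5516 and 3951 in MCAO candesartan pools, 4133 and 4061 in MCAO vehicle pools, 4087 and 3984 in sham candesartan pools, and 4680.0 and 3973 in sham vehicle pools. Cacng2 in MCAO vehicle lay above sham vehicle (0.14 ± 0.15) and above MCAO candesartan, and Cacng3 pools overlapped throughout.

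Of 33 genes listed by name and measured, 30 were tested. The other 3, Kcnj13, Scn7a and Cacnb4, did not pass the signal filter. Kcnj13, an inward rectifier of choroid plexus epithelium, gave 204 and 513 in MCAO candesartan pools, 656 and 614 in MCAO vehicle pools, 607 and 640.4 in sham candesartan pools, and 519 and 496 in sham vehicle pools. Scn7a, a channel that senses sodium in glia, gave 576 and 431 in MCAO candesartan pools, 601 and 716 in MCAO vehicle pools, 872 and 793 in sham candesartan pools, and 535 and 665 in sham vehicle pools. Cacnb4 gave 817 and 961 in MCAO candesartan pools, 565 and 789.8 in MCAO vehicle pools, 667 and 655 in sham candesartan pools, and 677 and 618 in sham vehicle pools. MCAO candesartan lay below sham candesartan for Kcnj13 and Scn7a and above it for Cacnb4. Cacna1e, an R-type calcium channel chosen after its values were seen, gave 133 and 86.5 in MCAO candesartan pools, 663 and 416 in MCAO vehicle pools, 595 and 491 in sham candesartan pools, and 500.0 and 539 in sham vehicle pools. With no filter on signal, Cacna1e in MCAO candesartan differed by -0.93 from sham candesartan (limma adjusted p = 0.193) and by -0.91 from MCAO vehicle (adjusted p = 0.261). In the fit without the filter 0 of 109 channel genes passed in any comparison.

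Where a gene had further probe sets that passed the filter, these often disagreed. There were 20 such probe sets for 15 genes, and in each of the 4 comparisons between groups 12 had the sign of the gene's chosen probe set and 8 the other sign. Probe sets of 1 gene can read different transcript ends or splice forms, so a difference seen by 1 of them holds for that probe set.

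Genes that work with these channels gave no calls either. Of 19 tested genes of other cation and anion channels, limma called 0 in all 7 comparisons, with at most 3 at an unadjusted p under 0.05. Of 13 tested ion pumps and exchangers it called 0, with at most 4 unadjusted, and of 23 channel anchors and regulators 0, with at most 5. For MCAO with candesartan the medians were -0.04 for the other channels, 0.01 for pumps and exchangers and -0.11 for anchors and regulators, and with vehicle -0.04, 0.01 and -0.07. Hcn2, a pacemaker channel, differed by -0.68 after MCAO with candesartan and by -0.62 with vehicle. Its pools were far apart in MCAO candesartan (2031 and 4393) and in sham vehicle (5048 and 3268). The MCAO pools of Hcn2 still lay below the sham pools with both pretreatments, as was so for 4.35% of all probe sets. Sgk1, a kinase that raises the surface number of several channels, differed by -0.78 and -0.13. Atp1b2, the glial beta subunit of the sodium pump, differed by -0.62 for candesartan against vehicle after MCAO and by -0.53 after sham. Its sham candesartan pools (3927 and 1872) were far apart and overlapped the sham vehicle pools (3427 and 4896). Values of these genes were chosen from the fixed lists after they were seen.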

How the data were processed

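Expression was measured in total RNA of 8 pools of 2 rats each, on 1 array per pool. The authors deposited linear signal intensities per probe set, in 1 table of the series. GCOS, Affymetrix's operating software, appears in the submitters' processing notes, and neither its version nor its settings are given there. The scaling between arrays was kept as deposited by the authors. No values of single rats were used, and the number of arrays limits the precision. Because pools of a group may differ for technical reasons, p-values measure only the spread between them.

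Of 15923 rows, 57 controls were left out. The platform annotation gave 1 symbol to 12783 probe sets, several to 312 and none to 2771. To each signal 370 (the 20th percentile) was added, and log2 was taken. Probe sets with a signal above 916, the 40th percentile, on at least 2 arrays were tested, 10310 in all. A single limma model (3.58.1 in R 4.3.3) held the 8 arrays with a mean per group and used eBayes with a trend. The residual degrees of freedom were 4, and Benjamini-Hochberg adjustment ran over all tested probe sets within each of the 7 comparisons. Calls needed an adjusted p under 0.05. The script was tested on simulated data.

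All 109 symbols were found in RefSeq's genes of assembly GRCr8, and promoters came from RefSeq. The members, the gene lists and the marker lists were chosen with earlier results of these data known. Genes with all 8 signals in the text were those called in any comparison, up to 4 genes each way per comparison between groups with the largest difference among those with separate pools, 3 each way with the smallest interaction p, and 38 listed genes where measured. Kcna5, Kcnab3, Kcnh1, Kcnmb4, Scn4b, Cacna1i and Cacna1e were added after their values were seen. Alternatives changed the scaling, the filter, the offset, the groups fitted, the variance model, the probe set per gene, a replicate block and which array was left out. Same-numbered pools did not deviate together (correlations of -0.0951 to 0.137 between groups), so the pool numbers were not taken to pair the arrays.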

Additional observations from a re-analysis of the deposited data

Results flagged for a closer look

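In 6 channel genes the MCAO pools lay on one side of the sham pools with candesartan and on the other side with vehicle. The differences between the 2 MCAO effects (log2, with candesartan minus with vehicle) were 0.79 for Cacnb3, -0.40 for Kcna5, -0.48 for Kcnc2, -0.58 for Kcne2, -0.60 for Kcnh2 and -0.83 for Scn3a. Leaving out 1 array took Cacnb3 to 0.44 (without sham candesartan 2) or 1.14 (without sham candesartan 1), and Kcnh2 to -0.37 (without sham vehicle 2) or -0.83 (without sham vehicle 1). Such opposite pools occurred in 9.38% of the tested channel genes and in 8.81% of all tested probe sets. Kcna5 is among them although it passed the signal filter only through its sham candesartan pools. Kcne2 at -0.58 and Kcnh2 at -0.60 also had candesartan pools below vehicle after MCAO and above vehicle after sham. For MCAO with vehicle the other tested probe sets of Kcnc2 gave -0.22, -0.01, -0.20 and -0.12, where the chosen 1 gave 0.05. Limma's test of the interaction passed for none of the 6 genes. The lowest adjusted p of a channel gene in that test was 0.495, for Cacna2d1, with 9 channel genes at an unadjusted p under 0.05. Single samples could not be tested as outliers in groups of 2.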

How the results depend on the processing

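The count of channel genes passing the test was 0 in each of the 7 comparisons and stayed 0 under every alternative except 1. Those with 0 included the replicate block, which gave 0 in all 7. The exception was leaving out MCAO candesartan 1, which leaves MCAO candesartan 2 as the lone array of its group and assumes that it varies like the others. Leaving out each array in turn, the counts ranged from 0 to 7 for MCAO minus sham with candesartan, 0 to 6 for candesartan minus vehicle after MCAO, 0 to 4 for MCAO over both pretreatments, and 0 to 1 for candesartan over both operations and for the interaction. In that fit 8.1%, 9.56%, 3.77%, 2.94% and 2.87% of all probe sets passed in these comparisons, in the same order. The cause was not tested. Counts over 0.5 (log2) without each array were added after seeing the data, and those for MCAO with candesartan ran from 3 to 11. Of 736 recomputed differences of 24 genes, 728 kept their direction and side of the threshold, 8 kept their direction and now passed, and 0 reversed. The recomputed differences had been selected for separate pools or a small interaction p. Where pools are separate, leaving out 1 array cannot reverse a difference between 2 groups, so that count of 0 was in part fixed beforehand. With 2 pools against 2, no exact test of 1 gene can go below p = 0.333.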
